A study of Mus musculus with 8 samples.

Results

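Lower glycolysis and lactate dehydrogenase were followed through the 9 genes Gapdh, Pgk1, Pgam1, Eno1, Eno2, Eno3, Pkm, Ldha and Ldhb, taken by symbol from the 56748 genes of the expression table, where each symbol had 1 row. The RNA came from 32D cells, a mouse bone marrow line of myeloblast type that needs IL-3 to grow and that had been transduced with murine Jak2WT or Jak2V617F, so all 4 groups carried an added Jak2. In each Jak2 background, clones with intact glucose transporters (GLUT1/3 WT) were set beside clones in which the genes of GLUT1 (Slc2a1) and GLUT3 (Slc2a3) had been edited with CRISPR-Cas9 (GLUT1/3 dKO). Every group held 2 libraries, clone 1 and clone 3, each grown from a single cell, so a group stands for 2 clones of 1 line and the p-values measure the spread between clones. Before RNA isolation the cells were kept for 24 h in RPMI with 5 mM glucose, 1 mM glutamine, 10% serum and 2 ng/ml IL-3 and without pyruvate.

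The lower part of glycolysis turns triose phosphate into pyruvate and yields the ATP and NADH of the pathway. GAPDH reduces NAD+, PGK1 and pyruvate kinase each make ATP, and between them phosphoglycerate mutase and enolase rearrange the carbon chain. Lactate dehydrogenase reduces pyruvate to lactate and so regenerates the NAD+ that GAPDH uses, and in proliferating blood cells most of it is built from the A subunit. Several of these genes are textbook targets of HIF-1 and MYC.

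Levels are given in FPKM, fragments scaled by gene length and by library depth, as deposited. Of the 9 genes, 7 reached an FPKM of 1 in 2 or more libraries and were tested among the 11818 genes that did, and Eno2 and Ldhb were not. Fold changes are differences of log2(FPKM + 1) from limma, given with their standard error (SE), and an adjusted p below 0.05 over all genes tested was called. With 2 clones a group, an exact permutation test of 1 gene could not pass that threshold, so the calls rest on the spread that limma shares across genes. Library depth ranged from 16846011 to 48884329 reads on genes. Of the targeted transporters, Slc2a1 fell from 46.6 ± 2.64 (SD, n = 2) to 9.32 ± 0.207 FPKM in Jak2WT dKO and from 58.5 ± 7.80 to 15.0 ± 3.21 FPKM in Jak2V617F dKO. Slc2a3 fell in Jak2V617F dKO (182 ± 22.8 to 35.99 ± 17.2 FPKM), and in Jak2WT dKO it stood at 32.8 ± 23.7 against 94.8 ± 4.12 FPKM with an adjusted p of 0.0612 in limma. Jak2 itself was lower in Jak2V617F than in Jak2WT cells in both genotypes (139.6 against 251 FPKM in GLUT1/3 WT and 159 against 231 FPKM in dKO). Among 12 myeloid markers 6 reached 1 FPKM, while Cebpa and Kit were at 0 in all 4 groups and Mpo, Elane and Ctsg were near 0. The summed FPKM of 12 erythroid markers lay between 276 and 291 in Jak2WT GLUT1/3 WT, 424 and 450.3 in Jak2WT dKO, 645 and 1011 in Jak2V617F GLUT1/3 WT, and 2742 and 4992 in Jak2V617F dKO, with mean Hba-a1, an alpha globin gene, at 56.5, 201, 569.6 and 1500.0 FPKM in that order. Over the same groups the myeloid sum lay between 427 and 484, 296 and 383, 354 and 363, and 148 and 152 FPKM. The megakaryocyte sum lay between 63.2 and 63.7, 85.3 and 90.2, 177 and 189, and 187 and 240.1 FPKM, the mast cell and basophil sum was at least 51.0 FPKM in every Jak2WT library and at most 1.67 FPKM in every Jak2V617F library, and the lymphoid sum was at most 0.978 FPKM. The part of these shifts in the results that follow was not tested, and fewer cells of a type and less RNA per cell cannot be told apart in bulk RNA.

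Pgk1, Pgam1 and Pkm fell in the dKO clones of both Jak2 backgrounds, and Ldha and Eno1 fell in the Jak2V617F dKO clones. In Jak2V617F cells the falls ran from 0.96 for Eno1 to 1.63 for Pgk1 on the log2 scale, that is, mean levels went down by 47.9% to 67.4%. In Jak2WT cells the called falls ran from 0.68 for Pkm to 0.72 for Pgam1, or 37.4% to 38.9% of the mean. Eno3, the muscle enolase, was the only one of the 7 with a fitted value above 0 in either dKO comparison.

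**Figure D1:**
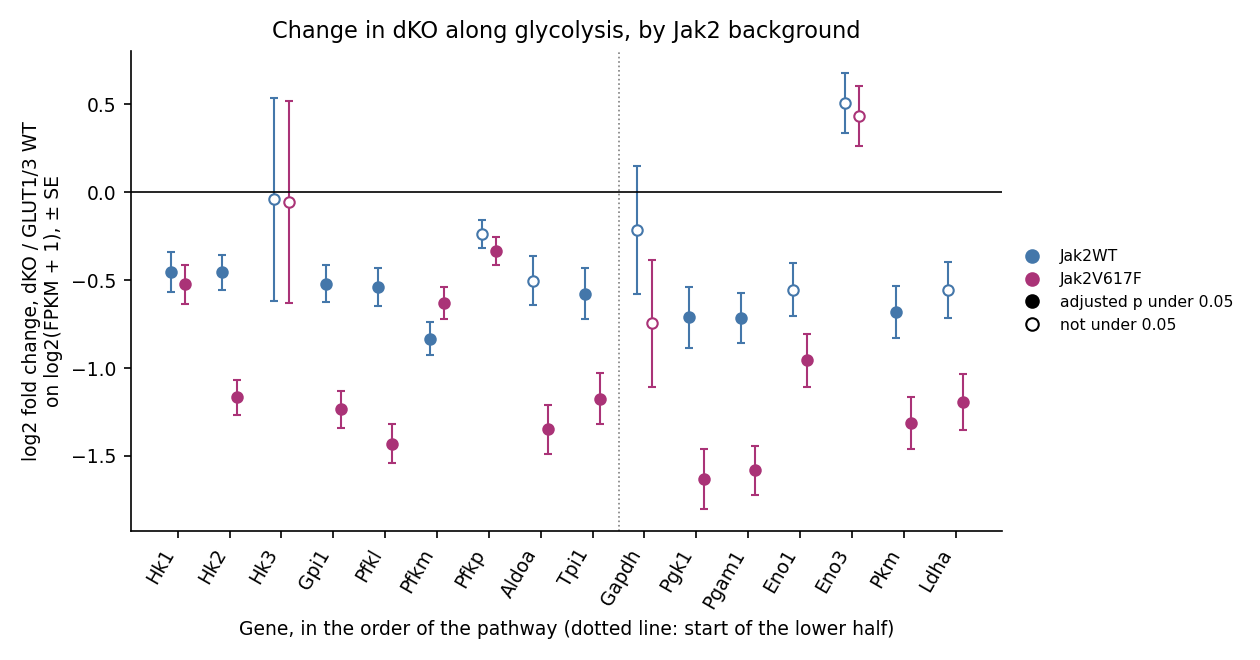
Log2 fold change on log2(FPKM + 1), dKO over GLUT1/3 WT, of upper and lower glycolysis genes in pathway order, with bars of 1 SE, in Jak2WT (blue) and Jak2V617F (purple) clones. Filled points have an adjusted p below 0.05, and 5 of the 7 lower glycolysis genes are filled in Jak2V617F and 3 in Jak2WT, all below 0.

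In Jak2WT cells, 3 of the 7 tested genes were lower in dKO at the threshold, where 6.06% of all tested genes were called lower and 7.62% higher, and 0 were higher. In 6 of the 7, both GLUT1/3 WT clones lay above both dKO clones, as in 32.0% of all tested genes, and in 1 they lay below them. The median change of the 7 was -0.56 against a median of 0.0082 over all genes tested. The count of 3 became 0 when any of the 4 Jak2WT libraries was left out, and the calls over all tested genes then went from 1617 to between 110 and 281. It was 2 without either Jak2V617F GLUT1/3 WT clone, and 6, Eno3 as higher among them, without either Jak2V617F dKO clone. It was 0 with no filter on low values and 5 with libraries scaled to the same summed FPKM or by their median ratio and with voom on recovered reads, when Ldha and Eno1 joined.

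In Jak2V617F cells, 5 of the 7 were lower, where 16.2% of all tested genes were called lower and 13.7% higher, and 0 were higher. In 5 of the 7, both GLUT1/3 WT clones lay above both dKO clones, as in 34.4% of all tested genes, and in Eno3 alone they lay below them. The median change of the 7 was -1.19 against -0.019 over all genes tested. The same 5 genes were called under every one of the 18 other settings, and under 2 of them each, Eno3 (higher) or Gapdh (lower) joined.

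The promoters of 3 of the genes that moved together are shown because HIF-1 and MYC, the regulators named above, recognise short motifs in such windows. Capitals mark ACGTG or GCGTG (the core of the hypoxia response element, on either strand) and CACGTG (the E-box, which contains ACGTG). The windows are the 250 bases before the RefSeq start (promoter table on GRCm38.p6), found by exact match in GRCm39, and for Ldha, whose listed gene begins further upstream, the first 154 bases of that window, which overlap no annotated Ldha exon. The Pgam1 window also overlaps an exon of Gm59327, a long noncoding RNA annotated on the opposite strand.
Pgk1, chrX:105230456-105230705, + strand: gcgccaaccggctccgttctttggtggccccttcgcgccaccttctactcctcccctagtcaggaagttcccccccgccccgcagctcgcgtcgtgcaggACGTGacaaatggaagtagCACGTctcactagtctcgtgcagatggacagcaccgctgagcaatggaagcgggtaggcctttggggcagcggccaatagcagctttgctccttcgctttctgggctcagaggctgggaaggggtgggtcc
Pgam1, chr19:41900060-41900309, + strand: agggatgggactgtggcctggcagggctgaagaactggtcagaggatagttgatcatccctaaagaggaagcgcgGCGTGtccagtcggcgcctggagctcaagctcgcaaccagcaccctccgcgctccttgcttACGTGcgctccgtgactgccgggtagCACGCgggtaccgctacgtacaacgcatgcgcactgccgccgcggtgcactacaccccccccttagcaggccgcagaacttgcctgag
Ldha, chr7:46494978-46495131, + strand: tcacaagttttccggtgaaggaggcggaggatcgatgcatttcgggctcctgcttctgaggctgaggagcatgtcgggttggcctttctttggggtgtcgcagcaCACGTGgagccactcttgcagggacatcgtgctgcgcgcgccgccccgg

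Over the full windows, the hypoxia response core was found at 3 places in Pgam1 and Ldha, at 2 in Pgk1 and Gapdh, at 1 in Eno1, Eno3 and Ldhb, and at 0 in Pkm and Eno2. Among the genes that fell, the number thus ran from 0 to 3. The 0 is that of Pkm, whose RefSeq start lies 224 bases downstream of the start of its main transcript. Its window therefore holds little of the sequence upstream of that transcript. The E-box was found at 2 places in Ldha, 1 of them in the part printed, and at 0 in the other windows. In the GENCODE M39 annotation, the windows of Eno1, Eno3, Pkm, Ldha and Ldhb overlap exons of their own gene and that of Gapdh lies inside the gene. Where several promoters were listed (Eno1, Pkm and Ldha), the one nearest to the start of the main transcript was read. Of 32851 promoters in the table, 38.6% held the core, 13.5% held it at 2 or more places and 4.65% at 3 or more, and 6.02% held the E-box. The matches are letters in these windows, and binding was not measured in these libraries.

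**Figure D2:**
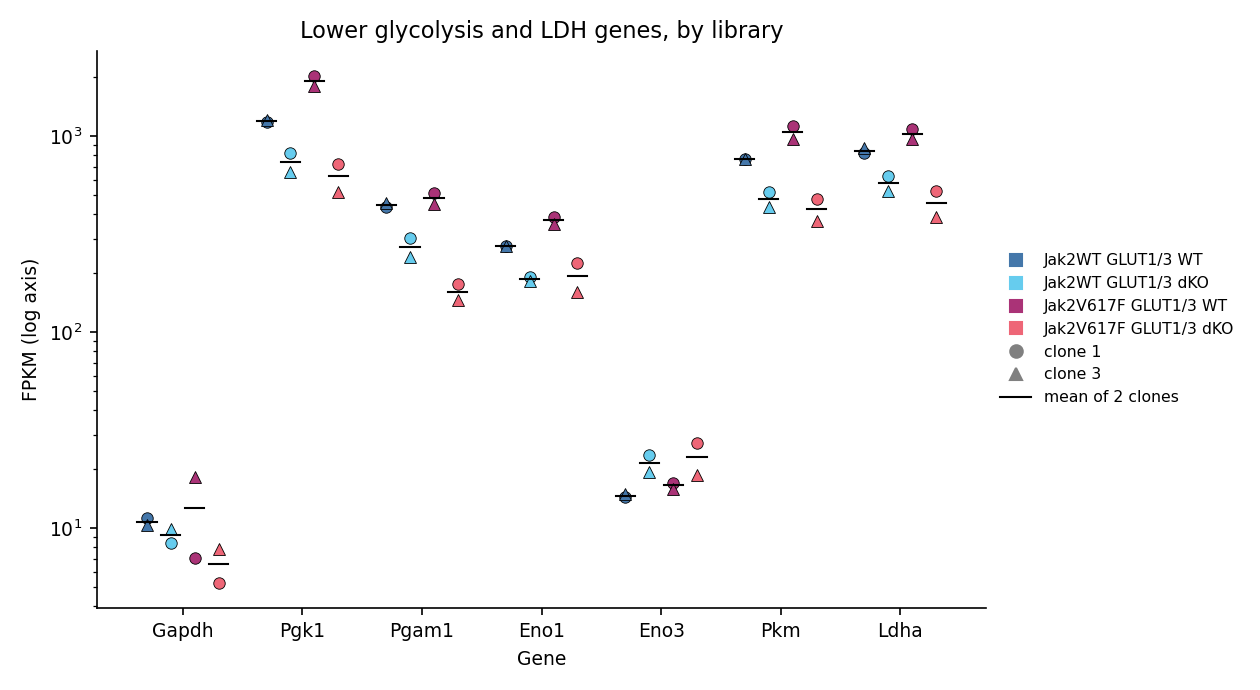
FPKM (log axis) of the 7 tested genes in each of the 8 libraries, by group (colour) and clone (shape), with a line at the mean of 2 clones. Pgk1, Pkm and Ldha lie highest in both Jak2V617F GLUT1/3 WT clones, and Eno3 is higher in all 4 dKO clones than in the 4 GLUT1/3 WT clones.

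Gapdh encodes glyceraldehyde-3-phosphate dehydrogenase, the step that makes NADH, and lies on chromosome 6 from 125138678 to 125143430 of GRCm39 (ENSMUSG00000057666, reverse strand). Its own row held 11.3 and 10.3 FPKM in Jak2WT GLUT1/3 WT clones 1 and 3, and 8.44 and 9.96 FPKM in Jak2WT dKO. In Jak2V617F it held 7.08 and 18.2 FPKM in GLUT1/3 WT and 5.28 and 7.80 FPKM in dKO. The Jak2V617F GLUT1/3 WT clones differed 2.57-fold, and no comparison of this row passed the test, with adjusted p between 0.159 and 0.888 in limma. Such levels are far below those of the neighbouring steps, and the rows of near-identical copies were read beside it.

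Of the 150-base windows of the main Gapdh transcript, 84.5% occurred without a mismatch at other places of the genome, at 48 loci. One of them, Gm13394 (ENSMUSG00000083773), is a processed pseudogene on chromosome 2 from 28823622 to 28824621, chosen here after its values were seen. Over 1252 aligned bases it differed from the Gapdh transcript at 2, G197A and A586C, counted from 1 at the 5′ end of the transcript with the base of Gapdh first, an identity of 99.8%. The stretch around the second difference, which is in the coding sequence, is shown because it is among the few places where a read can tell the loci apart (capitals mark the base that differs).
Gapdh, chr6:125139959-125139999, - strand: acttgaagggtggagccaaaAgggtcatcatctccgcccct
Gm13394, chr2:28824256-28824296, - strand: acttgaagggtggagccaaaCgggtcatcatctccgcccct

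The Gm13394 row held 1720 and 1946 FPKM in Jak2WT GLUT1/3 WT clones 1 and 3 and 1558 and 1171 FPKM in Jak2WT dKO. Among Jak2V617F clones it held 2918 and 2386 FPKM in GLUT1/3 WT and 994 and 769 FPKM in dKO. It took 93.1% to 95.9% of all reads on Gapdh and its pseudogene rows, and the Gapdh row took 0.963% to 3.90% (627 to 2245 reads). From which locus these reads came cannot be told apart in this table. The Gm13394 row fell by 1.59 ± 0.19 (SE) in Jak2V617F dKO (limma adjusted p = 0.00144), and in Jak2WT dKO its change was -0.44 ± 0.19 (adjusted p = 0.157). The difference between those changes, -1.15 ± 0.26, passed the test (adjusted p = 0.0374).

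When the reads of the 48 pseudogene rows at these loci were added to Gapdh, an alternative chosen after seeing the data, its mean became 1362 ± 112 FPKM in Jak2WT GLUT1/3 WT, 1020 ± 193 in Jak2WT dKO, 1966 ± 249 in Jak2V617F GLUT1/3 WT and 660 ± 110 in Jak2V617F dKO (SD, n = 2), per length of the main transcript. Another 13 rows at these loci that are not listed as pseudogenes, with 7182 to 19248 reads a library, were not added. The summed Gapdh fell by 1.58 in Jak2V617F dKO (limma adjusted p = 0.00122), a change that the Gapdh row alone did not show at the threshold. It was -0.43 in Jak2WT dKO (adjusted p = 0.143). Whether Gapdh counts as a gene that fell therefore depended on where the reads of its copies were placed.

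**Figure D3:**
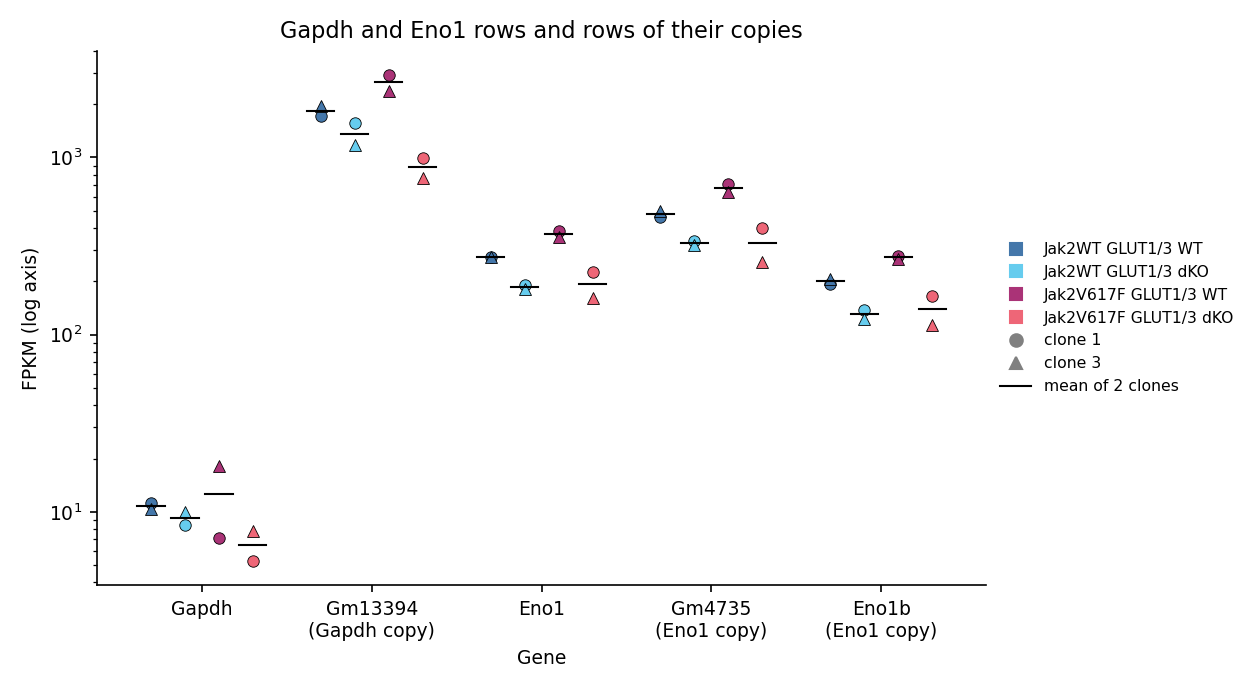
FPKM (log axis) of the Gapdh and Eno1 rows and of the rows of their near-identical copies in each library, by group (colour) and clone (shape), with a line at the mean of 2 clones. The Gm13394 row lies at 769 to 2918 FPKM and the Gapdh row at 5.28 to 18.2 FPKM.

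Pgk1 encodes phosphoglycerate kinase, the first ATP-making step, and lies on chromosome X from 105230706 to 105247305 (ENSMUSG00000062070, forward strand). It held 1183 and 1216 FPKM in Jak2WT GLUT1/3 WT clones 1 and 3, and 816 and 657 FPKM in Jak2WT dKO. In Jak2V617F it held 2026 and 1795 FPKM in GLUT1/3 WT and 724 and 521 FPKM in dKO. The GLUT1/3 WT clones of Jak2V617F lay highest, those of Jak2WT came next, and the dKO clones of both backgrounds lay lowest and overlapped. Pgk1 fell by 0.71 ± 0.17 (SE) in Jak2WT dKO (limma adjusted p = 0.0377) and by 1.63 ± 0.17 in Jak2V617F dKO (adjusted p = 0.00103). By mean FPKM it was the 7th of all genes in Jak2V617F GLUT1/3 WT and the 54th in Jak2V617F dKO. Perfect copies at 2 other loci covered 86.3% of its 150-base windows, and adding their reads left its changes at -0.71 and -1.63.

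Pgam1 encodes the main phosphoglycerate mutase outside muscle and lies on chromosome 19 from 41900362 to 41907099 (ENSMUSG00000011752, forward strand). It held 433 and 458 FPKM in Jak2WT GLUT1/3 WT, and 302 and 243 FPKM in Jak2WT dKO. The Jak2V617F libraries had 516 and 450 FPKM in GLUT1/3 WT and 175 and 146 FPKM in dKO. The GLUT1/3 WT clones of the 2 backgrounds overlapped, while the Jak2V617F dKO clones lay below the Jak2WT dKO clones. Pgam1 fell by 0.72 ± 0.14 (SE) in Jak2WT dKO (limma adjusted p = 0.0199) and by 1.58 ± 0.14 in Jak2V617F dKO (adjusted p = 0.000575). Copies at 3 loci cover 85.3% of its windows. Adding the reads of the 1 pseudogene row listed there gave -0.72 and -1.59, and 1 other row there was not added.

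Enolase makes phosphoenolpyruvate, and 3 isoform genes were listed. Eno1, the form of most tissues, lies on chromosome 4 from 150321178 to 150333336 (ENSMUSG00000063524, forward strand). It held 274 and 275 FPKM in Jak2WT GLUT1/3 WT and 191 and 182 FPKM in Jak2WT dKO. In Jak2V617F it held 386 and 358 FPKM in GLUT1/3 WT and 226 and 161 FPKM in dKO. Eno1 was lower in all dKO clones than in all GLUT1/3 WT clones, and the dKO clones of the 2 backgrounds overlapped. It fell by 0.96 ± 0.15 (SE) in Jak2V617F dKO (limma adjusted p = 0.00404), and in Jak2WT dKO its change of -0.55 ± 0.15 had an adjusted p of 0.0508.

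Eno1 also shares its sequence with copies, Gm4735 on chromosome 2 and Eno1b, and its own row held 58.8% to 61.3% of the reads on the 3 rows. Gm4735 (80667485 to 80668786, a processed pseudogene chosen here after its values were seen) differed from the Eno1 transcript at 6 of 1669 aligned bases. The first of these, T1390C by position in the Eno1 transcript, is in the coding sequence and is shown for the same reason as that of Gapdh.
Eno1, chr4:150331065-150331105, + strand: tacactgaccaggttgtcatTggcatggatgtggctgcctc
Gm4735, chr2:80668190-80668230, + strand: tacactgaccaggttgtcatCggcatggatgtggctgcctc
The Gm4735 row had mean levels of 480 ± 24.6 FPKM in Jak2WT GLUT1/3 WT, 330.4 ± 10.7 in Jak2WT dKO, 672 ± 48.6 in Jak2V617F GLUT1/3 WT and 328 ± 102 in Jak2V617F dKO (SD, n = 2). Eno1b stood at 200.2, 130.5, 274 and 139 FPKM in the same groups and fell by 0.99 ± 0.17 in Jak2V617F dKO (limma adjusted p = 0.00504). With the reads of both copies added, Eno1b among them although it is not listed as a pseudogene, the change of Eno1 was -0.56 in Jak2WT dKO (adjusted p = 0.0622) and -0.99 in Jak2V617F dKO (adjusted p = 0.00487).

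Eno3, the muscle form, lies on chromosome 11 from 70548028 to 70553339 (ENSMUSG00000060600, forward strand) and shares no 150-base window with another locus. It held 14.4 and 14.9 FPKM in Jak2WT GLUT1/3 WT and 23.6 and 19.3 FPKM in Jak2WT dKO. Its Jak2V617F levels were 17.1 and 15.9 FPKM in GLUT1/3 WT and 27.4 and 18.7 FPKM in dKO. All 4 dKO clones lay above all 4 GLUT1/3 WT clones, but neither change passed the test (0.51 ± 0.17 SE, limma adjusted p = 0.0893, in Jak2WT and 0.43 ± 0.17, adjusted p = 0.0955, in Jak2V617F).

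Within the enolase total of Eno1, Eno2 and Eno3 FPKM, Eno3 made up 5.08 ± 0.103% in Jak2WT GLUT1/3 WT, 10.3 ± 0.969% in Jak2WT dKO, 4.25 ± 0.0166% in Jak2V617F GLUT1/3 WT and 10.6 ± 0.260% in Jak2V617F dKO (SD, n = 2). The share was higher in dKO by 5.77 percentage points, in 4 of 4 dKO clones, with p = 0.0556 in a two-sided exact permutation of the transporter labels within each background. That is the smallest p its 36 arrangements can give. Averaged over the transporter genotypes, the share differed between the Jak2 backgrounds by -0.25 points (exact permutation p = 0.556). By mean it was lower in Jak2V617F among GLUT1/3 WT clones and higher among dKO clones. The size of the share depends on the length given to Eno1 and on its copies, which was examined on scales chosen after seeing the data. Per length of the main transcripts the share was 2.23 ± 0.0465%, 4.65 ± 0.466%, 1.86 ± 0.0074% and 4.80 ± 0.125% in the same order of groups, and the dKO difference was 2.69 points (exact permutation p = 0.0556). With the reads of the Eno1 copies added as well, it was 1.34 ± 0.0020%, 2.83 ± 0.274%, 1.104 ± 0.0047% and 2.96 ± 0.0154%, and the difference was 1.67 points (exact permutation p = 0.0556). In each background the dKO clones had both lower Eno1 and higher Eno3 values, of which the Eno1 change in Jak2V617F alone passed the test. Eno2, the neuronal form, on chromosome 6 from 124737016 to 124746636 (ENSMUSG00000004267), had 4 reads in the 8 libraries together, 2 of them in Jak2V617F GLUT1/3 WT clone 3. Each library could have missed a level of 0.0129 to 0.0368 FPKM (3 reads, counting error only), so Eno2 was at or under the limit of detection in every group.

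**Figure D4:**
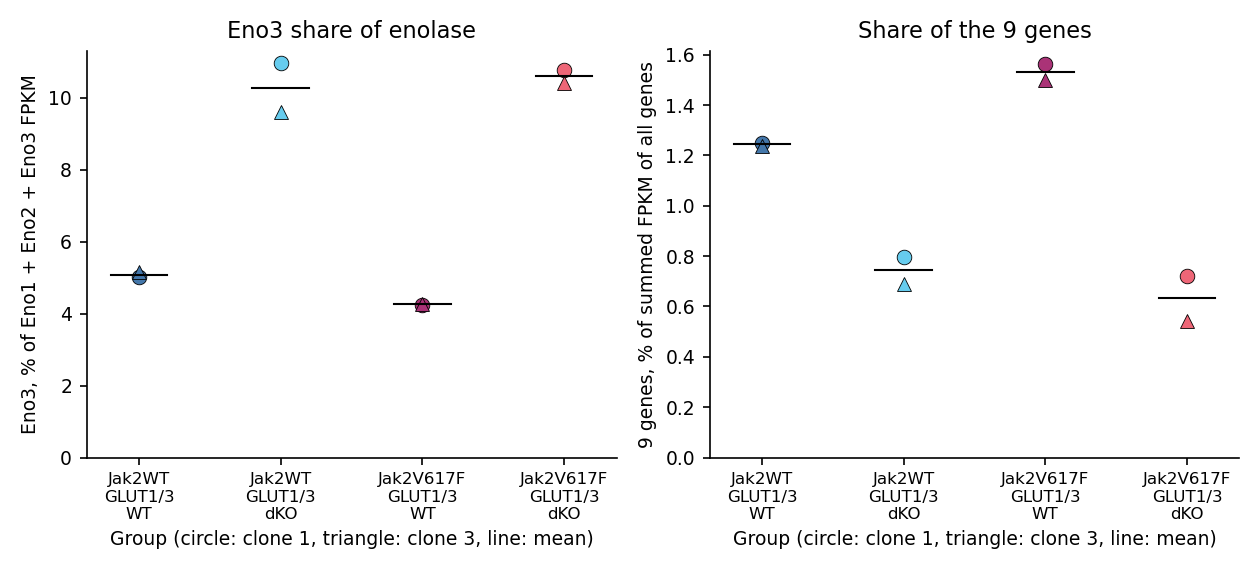
Left, the share of Eno3 in the summed FPKM of Eno1, Eno2 and Eno3, and right, the share of the 9 genes in the summed FPKM of all genes, in percent, per clone (points) with the mean of 2 clones (line). The dKO clones lie between 9.59% and 11.0% on the left and at most at 0.797% on the right, and the GLUT1/3 WT clones at most at 5.15% on the left and at least at 1.24% on the right.

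Pkm encodes the pyruvate kinase of most tissues, the second ATP-making step, and lies on chromosome 9 from 59563651 to 59586658 (ENSMUSG00000032294, forward strand). The table gives 1 value for the gene, so its M1 and M2 splice forms were not analysed here. It held 760.5 and 761 FPKM in Jak2WT GLUT1/3 WT and 516 and 436 FPKM in Jak2WT dKO. In Jak2V617F it held 1122 and 972 FPKM in GLUT1/3 WT and 478 and 369 FPKM in dKO. As with Pgk1, the Jak2V617F GLUT1/3 WT clones lay above all others and the dKO clones of the 2 backgrounds overlapped. Pkm fell by 0.68 ± 0.15 (SE) in Jak2WT dKO (limma adjusted p = 0.0270) and by 1.31 ± 0.15 in Jak2V617F dKO (adjusted p = 0.00126). It overlaps Gm49759, a provisional transcript on the same strand listed at 10.5 to 26.5 FPKM, over 3887 bases, and 5.57% of its windows have a perfect copy at 2 loci. Pklr, the liver and red cell pyruvate kinase, had at most 0.0125 FPKM in any library.

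Ldha encodes the A subunit of lactate dehydrogenase, the form that predominates in cells making lactate, and lies on chromosome 7 from 46490899 to 46505051 (ENSMUSG00000063229, forward strand). It held 816 and 868 FPKM in Jak2WT GLUT1/3 WT and 623 and 526 FPKM in Jak2WT dKO. Among Jak2V617F clones it held 1089 and 969 FPKM in GLUT1/3 WT and 523 and 386 FPKM in dKO. The 4 groups did not overlap, in the order Jak2V617F GLUT1/3 WT, Jak2WT GLUT1/3 WT, Jak2WT dKO and Jak2V617F dKO. Ldha fell by 1.19 ± 0.16 (SE) in Jak2V617F dKO (limma adjusted p = 0.00218), and in Jak2WT dKO its change of -0.56 ± 0.16 had an adjusted p of 0.0584. None of its 150-base windows recurred perfectly elsewhere.

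Ldhb, the B subunit, which predominates in heart, lies on chromosome 6 from 142435975 to 142453683 (ENSMUSG00000030246, reverse strand) and had 0 reads in all 8 libraries. A count of 0 allows a level of up to 0.0388 to 0.110 FPKM depending on the library (3 reads), or 0.0059% to 0.0196% of the sum of Ldha and Ldhb. With Ldhb at 0 in every clone, its balance with Ldha could not be tested at this depth.

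The levels of these messages were also compared between Jak2V617F and Jak2WT clones. The backgrounds differ as well in Jak2 message (139.6 against 251 FPKM in GLUT1/3 WT) and in the marker sums given above. The part of the mutant kinase itself was not tested. Among GLUT1/3 WT clones, Pgk1 rose by 0.67 ± 0.17 (SE; 1910 ± 163 against 1200 ± 23.5 FPKM, limma adjusted p = 0.0247). It was 1 of the 7 called higher, where 15.3% of all tested genes were called higher and 14.9% lower, and 0 were lower. Pkm (0.46 ± 0.15, adjusted p = 0.0526) and Eno1 (0.44 ± 0.15, adjusted p = 0.0633) were higher in both Jak2V617F clones but did not pass, and neither did Ldha (0.29 ± 0.16, adjusted p = 0.207). Both Jak2V617F clones lay above both Jak2WT clones in 5 of the 7 genes, as in 35.8% of all tested genes, and the median change was 0.29 against 0.0076 over all genes. The fitted values of Pgam1 (0.11) and Gapdh (0.08) turned to -0.041 and -0.059 with libraries scaled to the same summed FPKM. The count of 1 became 0 with no filter on low values and without any of the 4 libraries compared (calls over all tested genes then went from 3577 to between 1583 and 2635), 3 without either Jak2V617F dKO clone and 3 with voom, when Pkm and Eno1 joined Pgk1.

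Among dKO clones the order was not the same. Pgam1 fell by 0.75 ± 0.14 (SE) in Jak2V617F relative to Jak2WT dKO (161 ± 20.8 against 272 ± 41.7 FPKM, limma adjusted p = 0.0125), 1 of the 7 called lower where 9.96% of all tested genes were called lower and 7.12% higher. The other 6 did not pass, with fitted values from -0.45 (Gapdh) to 0.08 (Eno3), and the median of the 7 was -0.25 against -0.023 over all genes. Both Jak2V617F dKO clones lay below both Jak2WT dKO clones in 3 genes (Gapdh, Pgam1 and Ldha), as 33.1% of all tested genes did. With no filter on low values, or without Jak2WT dKO clone 1, the count was 0, and without that clone the calls over all tested genes went from 2019 to 620. With the reads of copies added, Gapdh joined Pgam1 (-0.63 ± 0.17, adjusted p = 0.0487).

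**Figure D5:**
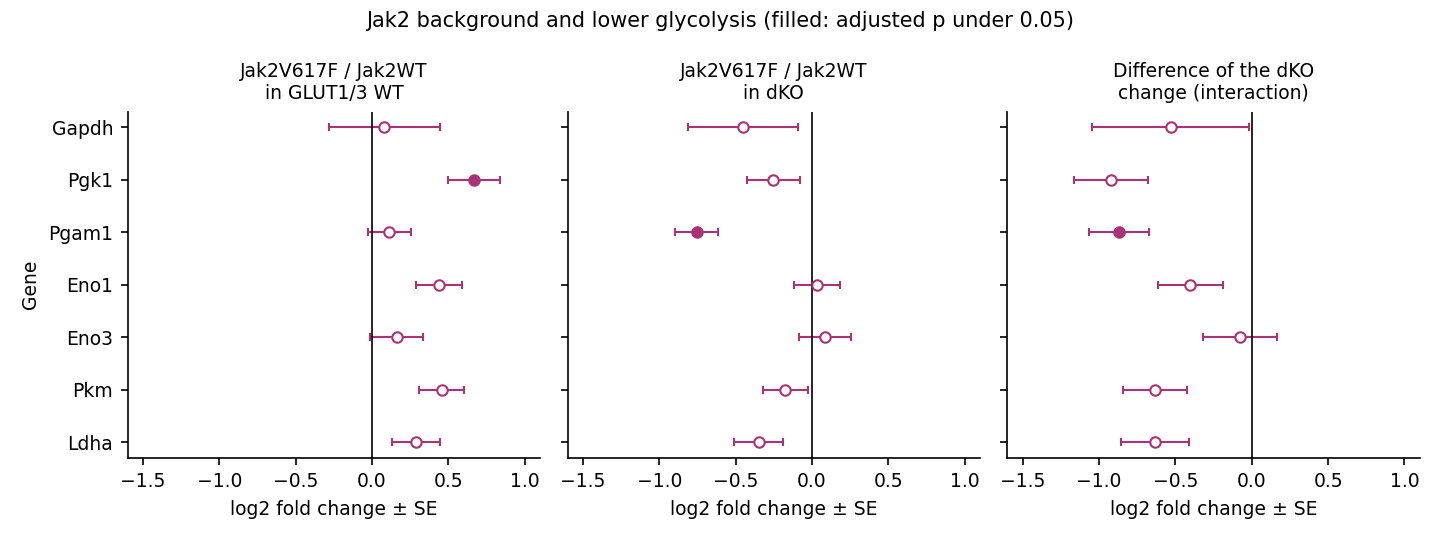
Log2 fold change on log2(FPKM + 1) with bars of 1 SE for the 7 tested genes, Jak2V617F over Jak2WT in GLUT1/3 WT clones (left), in dKO clones (middle), and the difference of the dKO change between backgrounds (right). Filled points passed the test (adjusted p below 0.05), Pgk1 on the left and Pgam1 in the middle and on the right, and with libraries scaled to the same summed FPKM the points of Pgam1 and Gapdh on the left and of Eno3 on the right change sign.

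The difference of the dKO change between the backgrounds was tested directly as an interaction. Pgam1 passed, with a fall that was larger by 0.87 ± 0.20 (SE) in Jak2V617F on the log2 scale (interaction -0.87, limma adjusted p = 0.0372), 1 of the 7 where 5.91% of all tested genes were called below 0 and 4.72% above. Pgk1 (-0.92 ± 0.24, adjusted p = 0.0554), Pkm (-0.63 ± 0.21, adjusted p = 0.0940) and Ldha (-0.64 ± 0.22, adjusted p = 0.110) did not pass, so their larger falls in Jak2V617F are not shown to differ from those in Jak2WT. All 7 fitted values were below 0, with a median of -0.63 against -0.039 over all genes, but that of Eno3 (-0.08) became 0.11 with libraries scaled to the same summed FPKM. The count was 0 with no filter on low values and without Jak2WT GLUT1/3 WT clone 1 or 3, Jak2WT dKO clone 1, Jak2V617F GLUT1/3 WT clone 1 or 3 or Jak2V617F dKO clone 3, and 4 without Jak2V617F dKO clone 1. Over all tested genes the interaction calls were 1256, and they were 68 and 5 without Jak2WT GLUT1/3 WT clones 1 and 3, 63 without Jak2WT dKO clone 1, 360 and 748 without Jak2V617F GLUT1/3 WT clones 1 and 3, and 1256 without Jak2V617F dKO clone 3. With voom or with copies added it was 2, with Pgk1 and with Gapdh respectively.

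As a share of the summed FPKM of all genes, the 9 rows made up 1.24 ± 0.0074% in Jak2WT GLUT1/3 WT, 0.744 ± 0.0752% in Jak2WT dKO, 1.53 ± 0.0456% in Jak2V617F GLUT1/3 WT and 0.633 ± 0.127% in Jak2V617F dKO (SD, n = 2). The dKO clones were lower by 0.70 percentage points, in 4 of 4 clones, with p = 0.0556 in the two-sided exact permutation test, the smallest it can give. Averaged over the 2 transporter genotypes, the Jak2 backgrounds differed by 0.0888 points (exact permutation p = 0.333). That average joins opposite directions, since the mean share was higher in Jak2V617F among GLUT1/3 WT clones and lower among dKO clones. Per listed gene length Pgk1 had the highest level of the 9 in all 4 groups. Per length of the main transcript the order was different: in Jak2WT GLUT1/3 WT, Ldha stood at 1755, Pkm at 1554, Pgk1 at 1475, Eno1 at 643 and Pgam1 at 491 on the FPKM scale, and Pgk1 came first in Jak2V617F GLUT1/3 WT alone. The order of Ldha, Pkm and Pgk1 among themselves therefore depends on the length used, and Gapdh can be placed beside them only with its copies.

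Most tested genes of the upper part of glycolysis, which spends ATP to make triose phosphate, were called lower in dKO as well. Of 13 listed genes 9 were tested, and 6 fell in Jak2WT dKO and 8 in Jak2V617F dKO with 0 higher in either (medians -0.50 and -1.17). Over all tested genes 6.06% were called lower and 7.62% higher in the former, and 16.2% and 13.7% in the latter. Hk3 passed in neither (-0.040 ± 0.58 SE in Jak2WT and -0.055 ± 0.58 in Jak2V617F). In Jak2V617F dKO the largest falls were those of Pfkl (-1.43 ± 0.11 SE), the liver-type phosphofructokinase, Aldoa (-1.35 ± 0.14), the main aldolase, Gpi1 (-1.24 ± 0.11) and Tpi1 (-1.17 ± 0.14). In Jak2WT dKO they were Pfkm (-0.83 ± 0.09), Tpi1 (-0.58 ± 0.14), Pfkl (-0.54 ± 0.11) and Gpi1 (-0.52 ± 0.11). The interaction passed for 4 of the 9, at -0.89 for Pfkl, -0.85 for Aldoa, -0.72 for Gpi1 and -0.71 for Hk2, the inducible hexokinase. There, 5.91% of all tested genes were called below 0 and 4.72% above. Between Jak2 backgrounds, 1 was higher (Gpi1, 0.44) and 1 lower (Hk3, -2.33) in GLUT1/3 WT clones, and 3 were lower in dKO clones (Hk3 at -2.35, Pfkl at -0.57 and Hk2 at -0.54). Over all tested genes 15.3% were called higher and 14.9% lower in the former, and 7.12% and 9.96% in the latter.

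Of 11 other genes of the same steps or named in the same families, 4 were tested. Pgam5, a mitochondrial phosphatase of the mutase family, rose in Jak2WT dKO (0.52 ± 0.13 SE) and in Jak2V617F GLUT1/3 WT (0.46 ± 0.13), while Bpgm, the bisphosphoglycerate mutase of red cells, fell in Jak2WT dKO (-0.44 ± 0.10). Pgam2, the muscle mutase, was higher in Jak2V617F than in Jak2WT dKO clones (0.97 ± 0.23) at levels of 6.89 and 2.94 FPKM. Eno1b was described with Eno1, and limma called 0 of the 4 for the interaction, with 2 at an unadjusted p below 0.05 and 1 called by voom. Of all tested genes, 7.62% were called higher and 6.06% lower in Jak2WT dKO. In Jak2V617F against Jak2WT, 15.3% were called higher in GLUT1/3 WT clones and 7.12% in dKO clones. Gapdhs, Ldhc, Ldhd and Pklr stayed below the filter, and Pgk2, Eno4 and Ldhal6b were at 0 in every library. Among rows named as pseudogenes of a member, Pgk1-rs7, Pgam1-ps2 and Ldha-ps2 were tested, with at most 8.63, 15.9 and 7.60 FPKM in a library.

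Of 8 genes for the transport of lactate and pyruvate, the end products, 4 were tested. In Jak2WT dKO limma called 0 of them, with 1 at an unadjusted p below 0.05 and 1 called by voom. Bsg, the chaperone of the lactate carriers MCT1 and MCT4, fell by 1.08 ± 0.13 (SE) in Jak2V617F dKO and was the 1 gene of this list whose interaction passed (-0.87 ± 0.18). Slc16a1, which encodes MCT1, was lower in Jak2V617F than in Jak2WT dKO clones (-0.68 ± 0.14), as was Bsg (-0.53 ± 0.13), and Mpc2, a subunit of the mitochondrial pyruvate carrier, was higher in Jak2V617F in GLUT1/3 WT (0.87 ± 0.19) and dKO clones (1.26 ± 0.19). Slc16a3, which encodes MCT4, had at most 0.191 FPKM. Of all tested genes, 7.62% were called higher and 6.06% lower in Jak2WT dKO, and 16.2% lower in Jak2V617F dKO. Between backgrounds the shares were 15.3% higher in GLUT1/3 WT clones, and 7.12% higher and 9.96% lower in dKO clones. For the interaction 5.91% were called below 0.

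The shuttles that carry the electrons of NADH into mitochondria are the other route to NAD+. Of 9 tested genes, 0 rose and 1 fell in Jak2WT dKO (Slc25a12, -0.71 ± 0.09 SE), and 2 rose (Gpd1l, 0.70, and Gpd2, 0.49) and 2 fell (Got1, -0.58, and Slc25a12, -0.47) in Jak2V617F dKO. Over all tested genes 7.62% were called higher and 6.06% lower in the former and 13.7% and 16.2% in the latter, so these counts are near the background. In Jak2V617F against Jak2WT, 1 was higher and 3 were lower in GLUT1/3 WT clones and 1 was higher in dKO clones, and limma called 0 of the 9 for the interaction, with 2 at an unadjusted p below 0.05 and 1 called by voom. Among 12 tested genes at the branches from 3-phosphoglycerate and pyruvate, 4 fell in Jak2WT dKO and 7 in Jak2V617F dKO, and 0 rose. Pdk1, the kinase that inhibits pyruvate dehydrogenase, changed by -1.11 ± 0.09 and by -1.90 ± 0.09, and Gpt2, which makes alanine from pyruvate in mitochondria, changed by -0.79 ± 0.13 and by -1.85 ± 0.13. Psat1 (-0.78 ± 0.11) and Phgdh (-0.53 ± 0.10), of serine synthesis, fell in Jak2V617F dKO. Between Jak2 backgrounds 2 of these 12 genes were higher and 2 lower in GLUT1/3 WT clones, which is near the background. In dKO clones 1 was higher and 4 were lower. Of all tested genes 15.3% were called higher and 14.9% lower in the former comparison, and 7.12% and 9.96% in the latter. The interaction passed for 1 above 0 (Pcx, 0.65) and 3 below (Gpt2 at -1.06, Phgdh at -0.79 and Pdk1 at -0.78). There, 4.72% of all tested genes were called above 0 and 5.91% below.

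Of 11 tested genes of the HIF and MYC regulators, 7 fell and 1 rose in Jak2V617F dKO, and 2 fell and 1 rose in Jak2WT dKO. Over all tested genes 16.2% were called lower and 13.7% higher in the former, and 6.06% and 7.62% in the latter. Egln1, the prolyl hydroxylase that marks HIF for breakdown and is itself a HIF target, fell by 1.99 ± 0.14 (SE) in Jak2V617F dKO and by 0.68 ± 0.14 in Jak2WT dKO. Mycn changed by -1.097 ± 0.14 and -0.60 ± 0.14 in the same order, and Arnt (-0.70 ± 0.10), the partner of HIF-1α, and Myc (-0.47 ± 0.10) fell in Jak2V617F dKO. In GLUT1/3 WT clones 4 were higher in Jak2V617F and 0 lower (Mycn 0.88, Myc 0.60, Max 0.37 and Arnt 0.33), and in dKO clones 2 were lower and 0 higher (Egln1 -0.88 and Hif1a -0.55). Over all tested genes 15.3% were called higher and 14.9% lower in GLUT1/3 WT clones, and 7.12% and 9.96% in dKO clones. The interaction passed for 4, all below 0 (Egln1 -1.31, Myc -0.72, Max -0.61 and Hif1a -0.54), where 5.91% of all tested genes were called below 0. The list holds messages of the regulators, and their proteins and activity were not measured in these libraries.

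Gapdh is often used as a reference gene, and 13 others were read beside it. In Jak2WT dKO 3 rose (B2m 1.16, Actb 0.98 and Rpl13a 0.64) and 0 fell, and in Jak2V617F dKO 2 rose (Tfrc 0.79 and Polr2a 0.64) and 2 fell (Hprt -0.50 and Sdha -0.50). Of all tested genes 7.62% were called higher and 6.06% lower in the former and 13.7% and 16.2% in the latter. The Jak2V617F dKO counts are thus near the background. Between Jak2 backgrounds 4 were higher and 4 lower in GLUT1/3 WT clones, where 15.3% and 14.9% of all tested genes were. In dKO clones 0 were higher and 2 lower, where 7.12% and 9.96% of all tested genes were. The interaction passed for 1 above 0 and 2 below, against 4.72% and 5.91% of all tested genes. Tbp, Ppia and Ywhaz passed in 0 of the 5 comparisons in limma, and the fitted value farthest from 0 among them was -0.38 (Ppia, Jak2V617F against Jak2WT in GLUT1/3 WT). Perfect copies elsewhere covered 57.9% of the 150-base windows of Ppia (7 loci), 37.2% of those of Ywhaz (2 loci) and 0% of those of Tbp. The reads at the copies of Ppia and Ywhaz were not examined, so whether their rows carry the limit of Gapdh was not tested. The medians of the list, -0.030 in Jak2WT dKO and -0.13 in Jak2V617F dKO, lay nearer to those of all genes than the medians of the 7 lower glycolysis genes.

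Genes with the most similar course over the 8 libraries were ranked by Pearson correlation of log2(FPKM + 1) with the mean standardised profile of the 7 genes, as a description in which all points share the same libraries and groups. Coq9, of coenzyme Q synthesis, came first (r = 0.991), followed by the aldolase gene Aldoa (0.984), Rgs18 (0.980), 3830406C13Rik (0.977), Adam9 (0.976), Gm2606 (0.975), Gm49338 (0.975) and Arl5b (0.975). Gm2606 is a processed pseudogene among the Gapdh copies described above and held 14 to 80 reads a library. With the mean of the other 6, the correlation was 0.977 for Pgk1, 0.974 for Ldha, 0.966 for Pkm, 0.925 for Eno1 and 0.896 for Pgam1, but 0.348 for Gapdh and -0.665 for Eno3. The genes most like the Gapdh row were Gm32856 (0.980), Dtwd1 (0.970) and Zfp729a (0.948), and those most like Eno3 were Rhbdf2 (0.989), Afp (0.985) and Cep170b (0.965).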

How the data were processed

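PolyA RNA of 8 libraries was sequenced by the authors as 150 bp pairs. Per the submitters' processing notes, the tools were featureCounts 2.0.6, HISAT2 2.2.1 and fastp 1.0.1, with the mm39 build. The annotation version, strand setting and treatment of reads with several matches are not given in the sources used here. The values are FPKM as deposited by the authors, per listed gene length. In every library 100% of the values were whole multiples of 1 read (within 0.01 of a step), which gave 16846011 to 48884329 reads per library. Counts of reads set the floors (3 reads), which cover counting error only.

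The 11818 of 56748 genes that reached an FPKM of 1 in 2 or more libraries were tested with limma 3.58.1 (R 4.3.3) on log2(FPKM + 1), with 4 group means, a spread shared across groups (4 residual degrees of freedom, prior 3.34) and Benjamini-Hochberg adjustment over all genes. A fold change on that scale understates the change of low genes. Shares were tested by exact permutation. Copies of the transcripts were sought with BLAST 2.17.0 in 150-base windows, and sequences came from GRCm39 and from RefSeq. The fitting was tested on simulated data. All members were described, with up to 4 of the largest called changes per list. All reference genes, the other genes of the same steps or families, and the 8 most similar genes (3 for a member whose own correlation was below 0.8) were described too. The members and lists were chosen with earlier results of these data known. There were 18 other settings, 1 of them chosen after seeing the data. The Eno3 share was also computed on 2 other scales, likewise chosen after seeing the data. Items of the design and of the reference gene list that are not reported here were left out.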

Additional observations from a re-analysis of the deposited data

Results flagged for a closer look

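The dKO change of Pgam1 differed between the Jak2 backgrounds by a direct test of that difference. The interaction was -0.87 ± 0.20 (SE, limma adjusted p = 0.0372), and Pgam1 was lower in 2 of 2 dKO clones of each background. So were 32.0% of all tested genes in Jak2WT and 34.4% in Jak2V617F. The Pgam1 call was lost with no filter on low values and depended on the libraries kept. The interaction of the Gapdh pseudogene row Gm13394, which was chosen after its values were seen, was -1.15 ± 0.26 (limma adjusted p = 0.0374). That row was lower in 2 of 2 dKO clones of each background, at the same shares over all tested genes. Interaction calls over all genes also changed with the libraries kept. With 2 clones a group, no group was tested for a library standing apart.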

How the results depend on the processing

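The 5 genes lower in Jak2V617F dKO (Pgk1, Ldha, Pkm, Pgam1 and Eno1) were called under all 18 other settings, and the count was 5 to 6. The other counts changed with libraries left out and with settings, as did the calls over all genes. With no filter on low values, which tests 25788 genes, the counts of 3 in Jak2WT dKO and of 1 in Jak2V617F against Jak2WT (GLUT1/3 WT), in Jak2V617F against Jak2WT (dKO) and in the interaction all became 0. The count of 3 was 5 with the same summed FPKM, by median ratio and with voom, and 6 with only the groups compared. In GLUT1/3 WT the count of 1 was 2 with a mean filter or median ratio, and 3 with voom or only the groups compared. The interaction count was 2 with voom and with copies added, and the dKO count 2 with copies added. Leaving out each library in turn gave counts of 0 to 6 in Jak2WT dKO, 5 to 6 in Jak2V617F dKO, 0 to 3 for Jak2V617F against Jak2WT in GLUT1/3 WT, 0 to 1 in dKO and 0 to 4 for the interaction. The cause of these changes was not tested.

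Clone numbers did not pair the clones, since correlations of same-numbered deviations ran from -0.254 to 0.152. With the clone number as a replicate block the counts were 5 in Jak2WT dKO, 2 for Jak2V617F against Jak2WT in GLUT1/3 WT and 2 for the interaction.

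Leaving out each library gave differences of 5.43 to 6.11 points (dKO) and -0.597 to 0.0883 (Jak2V617F) for the Eno3 share, -0.744 to -0.655 and 0.0440 to 0.134 for the share of the 9 genes, and -0.0014 to 0.00092 and 0.00049 to 0.0028 for the Eno2 share. The Eno3 value turned to 0.0883 without Jak2WT dKO clone 1, and the Eno2 dKO value to 0.000218, 0.000706 and 0.000924 without Jak2WT GLUT1/3 WT clone 1, Jak2V617F GLUT1/3 WT clone 3 and Jak2V617F dKO clone 1. The Eno2 share rests on 4 reads and the Ldhb share was 0 everywhere, so their tests show nothing. The dKO difference of the Eno3 share was 2.69 points per main transcript length and 1.67 with copies added as well.

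Scaling to the same summed FPKM moved the median of all genes from 0.0076 to -0.12 in Jak2V617F against Jak2WT (GLUT1/3 WT) and from -0.039 to 0.12 in the interaction. Under it Gapdh (-0.059) and Pgam1 (-0.041) turned in the former and Eno3 (0.11) in the latter. With libraries left out in turn, Gapdh lay between -0.55 and 0.70 in the former and between -1.16 and 0.093 in the interaction, and both changes of sign came when clone 3 of Jak2V617F GLUT1/3 WT was left out. For Jak2V617F against Jak2WT in dKO, Eno1 ran from -0.21 to 0.28, Eno3 from -0.18 to 0.35, Pkm from -0.36 to 0.0095, Slc2a3 from -0.53 to 1.04 and Gm4735 from -0.37 to 0.28. Among these, Eno1 turned to -0.0020 and Eno3 to -0.054 without Jak2WT dKO clone 3, and Slc2a3 to -0.24 without Jak2V617F dKO clone 1. The interaction ran from -0.34 to 0.19 for Eno3 (0.061 without Jak2WT dKO clone 1) and from -1.46 to 0.10 for Slc2a3.

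Over all genes the calls were 1617 in Jak2WT dKO (2449 with voom, 714 with no filter, 110 to 1974 with a library left out), 3533 in Jak2V617F dKO (1617 with only the groups compared, 2131 to 2985 with a library left out), 3577 for Jak2V617F against Jak2WT in GLUT1/3 WT (1583 to 3969 with a library left out), 2019 in dKO (1028 with only the groups compared, 1347 with no filter, 620 to 1992 with a library left out) and 1256 for the interaction (346 with no filter, 5 to 1256 with a library left out). Depth limits Eno2 and Ldhb, which were at or under 3 reads in each library.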
